A study of Homo sapiens with 24 samples.

Results

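Exons that were left out of the mRNA under E7107 in WT PHF5A cells, but not in Y36C PHF5A cells, were examined in HCT-116 cells, a human colorectal cancer line. The cells carried a lentiviral WT or Y36C PHF5A transgene on top of their own gene copies and received DMSO or E7107 for 6 h, which makes 4 groups of 6 samples each and 24 samples in all, named here by genotype and treatment (WT DMSO, Y36C E7107 and so on). Both lines thus overexpress PHF5A after drug selection, and the labels give no dose. For each junction the percent spliced in (PSI) was measured, the share of all reads at a splice site that use that junction, with reads that cross the exon-intron boundary unspliced among them.

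An exon entered through the junction that skips it. Both junctions that include the exon had a mean PSI of 20 or more in WT DMSO, the skipped stretch was at most 1000 bases long, and the splice site had reads in all 24 samples. The skipping junction had to be higher by 10 percentage points or more in WT E7107 than in WT DMSO, and by less than 3 points in Y36C E7107 than in Y36C DMSO. Of 63934 candidate skipping junctions 1386 met this, in 1100 genes, and 1358 of them (98.0%) lay in protein-coding genes. One annotated exon was skipped in 1236, and in 131 the skipped stretch held at least 1 annotated intron between annotated exon ends, so that neighbouring exons were skipped together. The 1386 junctions skipped 1375 distinct exons or stretches, and each junction is counted below as 1 exon. These exons were thus selected on their changes with E7107 in WT and in Y36C cells, which are given as descriptions without a test.

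An exon is recognised through the 3′ splice site before it and the 5′ splice site after it. The SF3b complex of the U2 snRNP, to which SF3B1 and PHF5A belong, holds the branch point region upstream of the 3′ splice site, and pladienolides such as E7107 bind at this place. When an internal exon is not recognised, the splice sites of its neighbours can be joined directly, and when the length of a coding exon is not a multiple of 3 the skipped mRNA changes its reading frame. When neither junction forms, the intron is retained and reads cross the boundary.

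The following exons are printed with the last 40 bases of the intron before them and the first 6 bases of the intron after them, because they show the 3′ and 5′ splice sites of exons on which the results below turn. Capitals mark the exon, and all are written 5′ to 3′ on the transcript strand from GRCh37, the sequence of hg19.
CDC25A: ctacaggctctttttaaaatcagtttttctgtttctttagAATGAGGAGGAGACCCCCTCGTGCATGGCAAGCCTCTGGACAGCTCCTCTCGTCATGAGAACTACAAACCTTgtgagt
MCL1: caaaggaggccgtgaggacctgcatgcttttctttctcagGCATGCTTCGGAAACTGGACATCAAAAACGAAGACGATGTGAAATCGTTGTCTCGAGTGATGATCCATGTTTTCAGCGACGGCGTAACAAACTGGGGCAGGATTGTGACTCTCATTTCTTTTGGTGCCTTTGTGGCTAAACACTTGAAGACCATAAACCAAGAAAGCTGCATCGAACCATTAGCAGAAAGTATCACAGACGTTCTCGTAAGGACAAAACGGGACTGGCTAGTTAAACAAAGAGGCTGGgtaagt
SF1: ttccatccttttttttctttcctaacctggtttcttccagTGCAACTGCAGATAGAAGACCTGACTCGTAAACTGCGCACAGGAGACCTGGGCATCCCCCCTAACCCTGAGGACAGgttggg
CCNA2: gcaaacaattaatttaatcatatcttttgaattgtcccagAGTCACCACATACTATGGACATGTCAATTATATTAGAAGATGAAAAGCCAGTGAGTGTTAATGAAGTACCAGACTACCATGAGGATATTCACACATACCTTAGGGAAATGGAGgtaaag
TOP2A: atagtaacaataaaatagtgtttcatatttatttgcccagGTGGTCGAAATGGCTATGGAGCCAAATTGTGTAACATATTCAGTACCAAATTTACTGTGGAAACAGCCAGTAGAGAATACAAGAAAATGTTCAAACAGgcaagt
EIF5: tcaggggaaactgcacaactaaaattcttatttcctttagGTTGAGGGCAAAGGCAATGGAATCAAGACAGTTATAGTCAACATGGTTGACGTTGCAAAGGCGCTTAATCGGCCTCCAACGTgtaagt
KMT2E: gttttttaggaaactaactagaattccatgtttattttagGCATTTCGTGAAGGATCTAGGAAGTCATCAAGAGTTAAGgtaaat
DNMBP: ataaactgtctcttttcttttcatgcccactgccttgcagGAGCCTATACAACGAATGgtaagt
The printed stretches are chr3:48218855-48218972 for CDC25A, chr1:150550714-150551007 for MCL1, chr11:64540896-64541017 for SF1, chr4:122742128-122742286 for CCNA2, chr17:38569441-38569584 for TOP2A, chr14:103802333-103802460 for EIF5, chr7:104716450-104716534 for KMT2E and chr10:101658494-101658557 for DNMBP. EIF5 and KMT2E lie on the plus strand and the other 6 on the minus strand. All 8 are coding exons. Lengths run from 18 bases in DNMBP to 248 bases in MCL1, and those of CDC25A, KMT2E and DNMBP are multiples of 3. The TOP2A exon is followed by a GC instead of a GT 5′ splice site. The letters CTNA, searched on the transcript strand only, occur in the 40 bases before the exons of MCL1, SF1, EIF5 and KMT2E and not before the other 4. In MCL1 the only match starts 5 bases before the exon and ends in the A of the final AG. The nearest match starts 19 bases before the exon in SF1, 14 in EIF5 and 27 in KMT2E.

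The skipping junctions of most of the 1386 exons were little used in untreated cells. Their mean PSI was 0 in WT DMSO for 595 exons, under 1% for 900 and 5% or more for 225. They were not used less than candidates in general. The median in WT DMSO was 0.248%, against 0.122% over all candidates, and the mean 3.88% against 2.13%. The median over exons went from 0.248% with DMSO to 17.6% with E7107 in WT cells, and from 0.402% to 1.45% in Y36C cells. The WT change had a median of 16.0 points, was 20 points or more for 419 exons, 30 or more for 151 and 50 or more for 31, and reached 82.2 points. The Y36C change had a median of 0.40 points and lay between -1 and 1 for 727 exons. In the plot of both changes, the exons form a band along the WT axis.

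**Figure D1:**
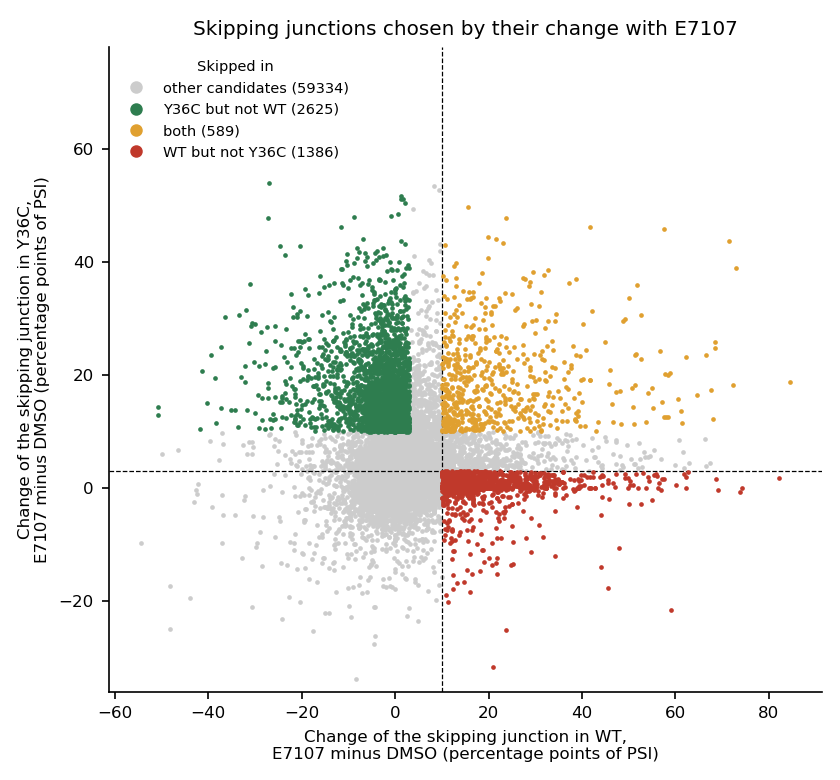
Change of the PSI of 63934 candidate skipping junctions with E7107, in WT cells on the horizontal axis and in Y36C cells on the vertical axis, in percentage points. Each point is a junction, dashed lines mark the limits of 10 points in WT and 3 points in Y36C, and the 1386 exons skipped in WT but not Y36C lie right of the one and under the other.

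The limits cut through a continuous range. Just inside the WT limit were junctions of TMTC3 and RANBP17, each with a change of 10 points, and just outside it those of NRBP2 with 9.9992 points and MROH1 with 9.9977 points. Just inside the Y36C limit were GPAT3 with 2.9974 points and DCUN1D4 with 2.9828 points, and just outside it another junction of TMTC3 with 3.0035 points and one of COIL with 3.0088 points.

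Not every one of these exons separated the samples. In 595 of 1386 (42.9%) each of the 6 WT E7107 samples lay above each of the 6 WT DMSO samples, against a background of 3.89% of all candidates, and this contrast had chosen the exons. In the other 791 the groups overlapped. In 94 exons the skipping junction was seen in only 1 of the 6 WT E7107 samples, and in 704 it was seen in all 6. The mean of an exon seen in few samples rests on few reads of unknown number. In Y36C cells all 6 E7107 samples lay above all 6 DMSO samples for 41 exons (2.96%), and for 7.31% of all candidates.

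At the splice site that chose the exon, the skipping junction took up 3.88% ± 0.07 of the reads in WT DMSO and 22.8% ± 0.4 in WT E7107, as a mean over the 1386 exons (SD, n = 6). The inclusion junction went from 88.0% ± 0.2 to 48.6% ± 1.2, and unspliced boundary reads went from 4.34% ± 0.32 to 24.3% ± 1.4. As a mean over these exons, skipping and unspliced reads in WT cells thus rose by about equal parts. The rule had asked for higher skipping at this very site in WT E7107. The split therefore depends on how the exons were chosen and carries no test. Single sites differed from the mean. In WT E7107 the KMT2E site held 42.0% skipping and 7.76% boundary reads, and the MCL1 site 33.3% and 59.9%. In Y36C cells the skipping junction was at 4.52% ± 0.11 in both treatments, the inclusion junction at 87.7% ± 0.1 and 85.6% ± 0.3, and boundary reads at 4.01% ± 0.09 and 5.37% ± 0.27. Over all candidates boundary reads went from 4.28% ± 0.15 to 16.3% ± 1.0 in WT cells while skipping went only from 2.13% ± 0.01 to 3.09% ± 0.05. Among spliced reads alone, the median share of skipping for the 1386 exons was 25% in WT E7107 and 1.49% in Y36C E7107.

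**Figure D2:**
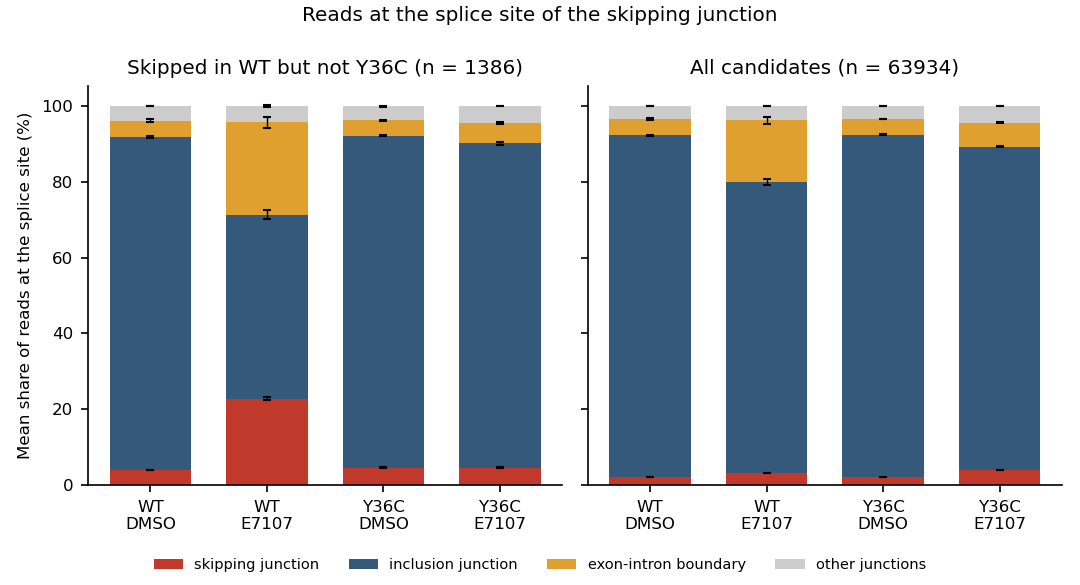
Stacked bars of the mean share of reads, in percent, at the splice site of the skipping junction for the 1386 exons (left) and all 63934 candidates (right) in the 4 groups. Bars divide the site into skipping junction, inclusion junction, exon-intron boundary and other junctions, error marks are the SD over 6 samples, and in WT E7107 the left panel holds 22.8% skipping.

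Unspliced reads were also more frequent at the 2 splice sites of the exon itself, which the rule did not read. At the 3′ splice site of the skipped exon the median share of boundary reads was 1.35% in WT DMSO and 30.1% in WT E7107, over 1062 exons with reads at that site in all samples. At its 5′ splice site it was 1.15% and 26.5% over 1103 exons. The corresponding medians over all candidates in WT E7107 were 7.87% and 7.17%. In Y36C E7107 the medians for the skipped exons were 1.46% and 1.29%, next to 1.20% and 0.949% in Y36C DMSO. Boundary reads were higher by 10 points or more in WT E7107 at the 3′ splice site of 815 skipped exons (76.7%), against 36.2% of all candidates, and in Y36C E7107 at 42 (3.95%), against 8.93%. These values belong to the contrasts that chose the exons and carry no test.

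**Figure D3:**
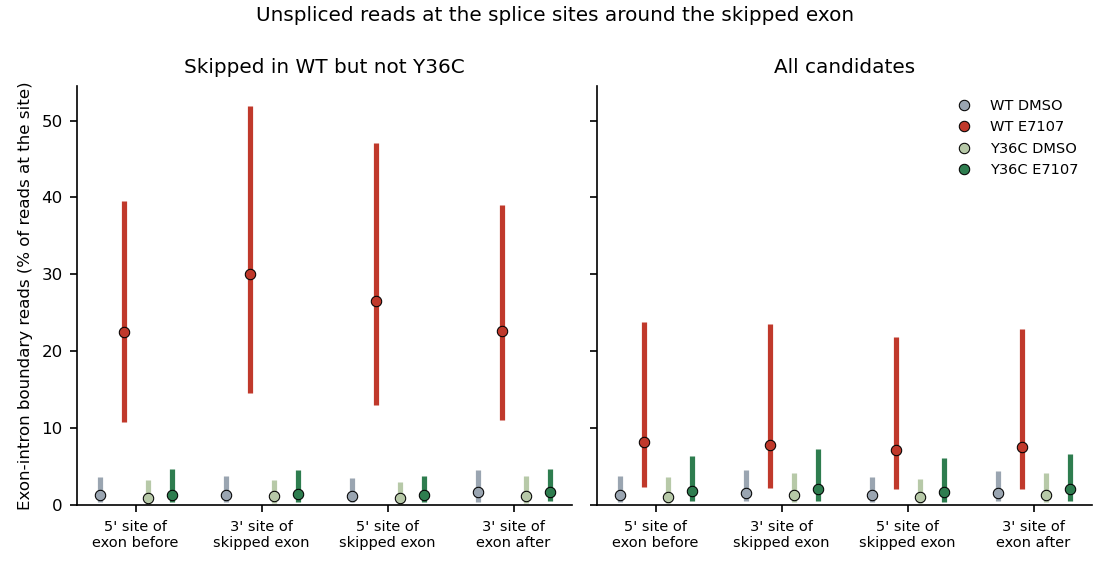
Share of unspliced exon-intron boundary reads, in percent of reads at the site, at the 4 splice sites around the skipped exon. Points are medians over exons and bars the range from the 25th to the 75th percentile, for the exons skipped in WT but not Y36C (left) and all candidates (right). In WT E7107 the left panel lies highest, with 30.1% at the 3′ splice site of the skipped exon.

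The 15 annotated exons with the largest WT change, 1 per gene, among those with separate WT groups and an SD of at most 10 points in each group, came from genes of varied function. The largest was exon 2 of 3 of GJC1, a gap junction connexin (chr17:42884762-42884837, 76 bases, not coding). Its skipping PSI was 0% to 2.08% (median 0%) in WT DMSO and 73.9% to 89.8% (median 83.2%) in WT E7107. In Y36C cells it was 0% to 1.67% (median 0%) with DMSO and 0% to 5.63% (median 1.39%) with E7107. The WT E7107 samples stood far above all 18 others, with a mean of 82.5% ± 5.8 (SD, n = 6).

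CDC25A encodes a phosphatase that activates cyclin-dependent kinases. Its exon 8 of 15 (chr3:48218861-48218932) keeps the reading frame when skipped. Skipping was 0% to 2.56% (median 0%) in WT DMSO and 44.7% to 61.5% (median 49.95%) in WT E7107. In Y36C cells it was 0% to 1.21% (median 0.515%) with DMSO and 0% to 5.63% (median 2.83%) with E7107. No WT E7107 sample overlapped any other group. At its 5′ splice site boundary reads were at 42.9% in WT E7107 and 0.130% in Y36C E7107. Exon 11 of CDC25A was skipped as well, with a mean of 0% in WT DMSO and 39.4% in WT E7107.

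Another 4 members of this leading group show a skipping junction that was not seen in untreated cells. THBS1 encodes the secreted glycoprotein thrombospondin-1, and the junction over its exon 20 of 22 (98 bases) was at 0% in all 18 samples outside WT E7107 and at 47.8% to 58.1% (median 54.1%) in WT E7107. DNMBP encodes a guanine nucleotide exchange factor for CDC42, and its exon of 18 bases, number 8 of 17, was skipped at 0% in all DMSO samples, at 37.3% to 52.4% (median 47.5%) in WT E7107 and at 0% to 0.645% in Y36C E7107. FRS2, an adaptor of FGF receptors, had 0% in all DMSO samples at exon 3 of 9, then 50% to 66.7% (median 56.4%) in WT E7107 and 0% to 5.00% in Y36C E7107. MFHAS1 had 0% in all DMSO samples at exon 2 of 3, then 41.3% to 61.2% (median 51.7%) in WT E7107 and 0% to 3.66% in Y36C E7107. The WT E7107 samples of all 4 were separate from the other 18.

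The rest of the 15 had WT changes between 43.8 and 61.9 points. They were exons of SYBU (61.9 points), which links vesicles to kinesin, FAM118B (57.6), ARID4B (55.8), a subunit of the SIN3 deacetylase complex, FGFR1OP2 (53.0), DNTTIP2 (50.2), PUM2 (49.1), an RNA-binding translational repressor, ZNF639 (45.6), PANK4 (44.2) and BYSL (43.8), which acts in the maturation of the small ribosomal subunit. Their Y36C changes ran from 0.617 points in DNTTIP2 to 2.74 points in FGFR1OP2. ARID4B and PUM2 showed skipping in untreated cells too, with means of 10.9% ± 3.0 and 4.97% ± 2.72 in WT DMSO. In ARID4B the Y36C E7107 samples ran from 0% to 15.4% and overlapped those of WT DMSO, which ran from 6.98% to 15.4%. At the site of ZNF639 the inclusion junction held 25.2% in WT DMSO, so most reads there used other junctions.

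**Figure D4:**
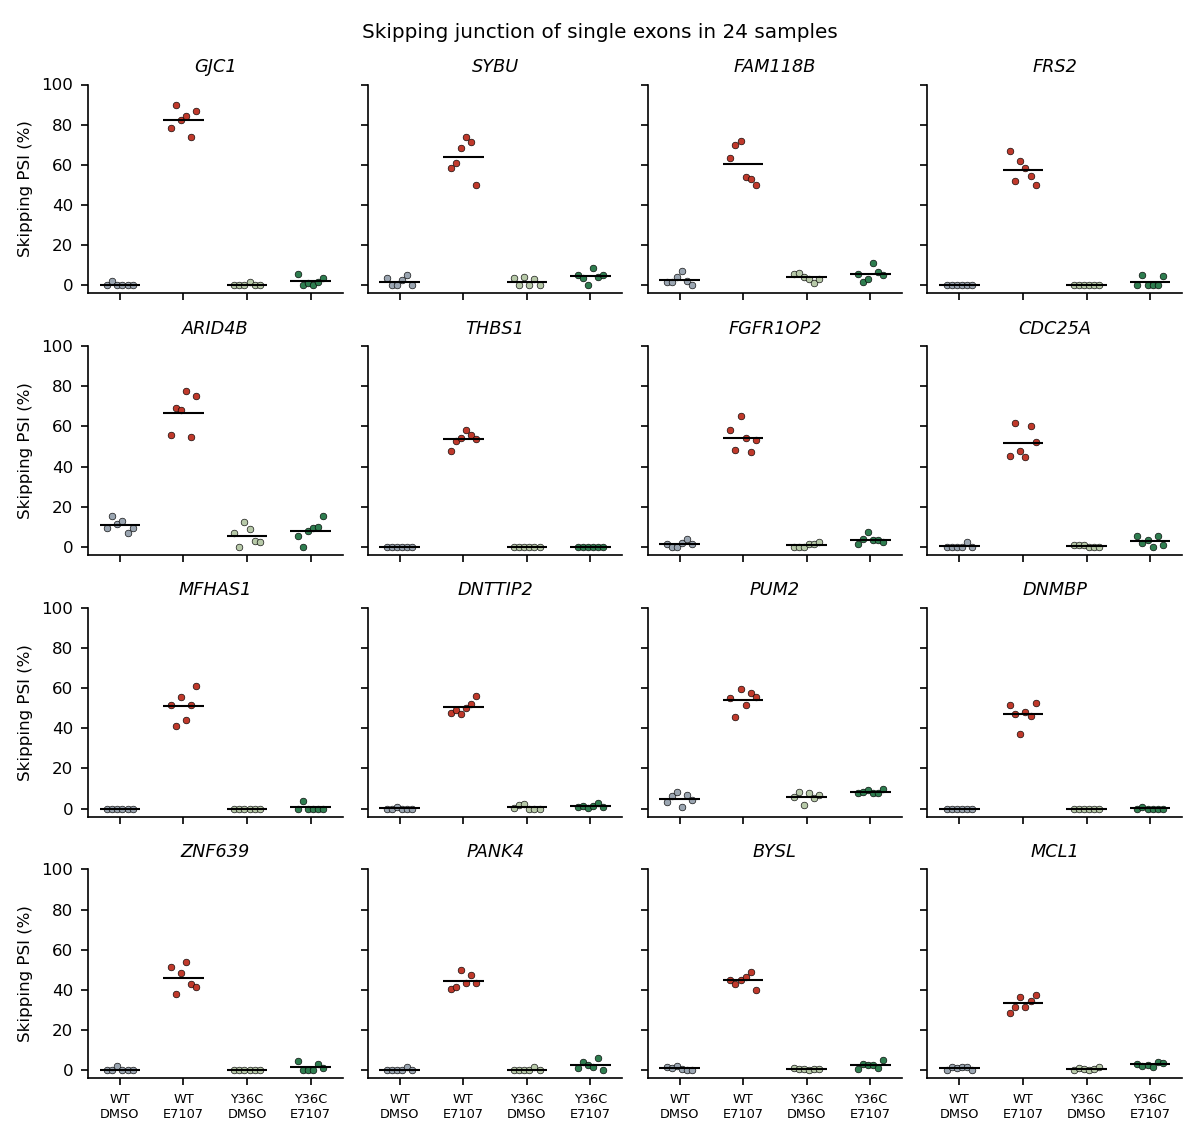
PSI of the skipping junction, in percent, in each of 24 samples for 15 exons with the largest WT change and for MCL1. Each point is a sample, the line is the group mean of 6 samples, and in every panel the 6 WT E7107 samples lie above all others.

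MCL1 encodes an antiapoptotic member of the BCL2 family whose long form needs exon 2 of its 3 exons (chr1:150550720-150550967). Skipping of that exon was 0.282% to 1.79% (median 1.32%) in WT DMSO and 28.3% to 37.6% (median 33.0%) in WT E7107. In Y36C cells it was 0.273% to 1.66% (median 0.667%) with DMSO and 1.58% to 4.16% (median 2.92%) with E7107. The WT E7107 samples were separate from the rest, and the Y36C E7107 samples overlapped the DMSO samples in part. At the same splice site the inclusion junction had a mean of 6.74% in WT E7107 and 91.8% in Y36C E7107, and boundary reads 59.9% and 5.2%. At the 3′ splice site of exon 2 itself 89.7% of reads were unspliced in WT E7107.

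RBM5 encodes an RNA-binding protein that regulates splicing of apoptosis genes. The stretch skipped in RBM5 (chr3:50151383-50151684, 302 bases) was not a single annotated exon but held an annotated intron. Its skipping junction was at 0% in all DMSO samples, at 15.4% to 29.8% in WT E7107 (mean 22.1% ± 5.9, SD, n = 6) and at 0% to 2.17% in Y36C E7107 (mean 0.362% ± 0.887). The genes CDC25B, CDK10 and EIF4A1, looked up for their place in the study, held no exon that met the rule. The study lists MCL1, CDC25B, RBM5 and CDK10 as having retained introns in WT and skipped exons in Y36C under E7107. The rule asks for the reverse of that skipping. For MCL1 the study describes mainly skipping in Y36C and retention in WT. Boundary reads of MCL1 were highest in WT E7107 here too, but its skipping was also higher there than in Y36C E7107. The reason was not tested.

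The exons were next counted in 10 lists of genes, beside all genes with a candidate, of which 1100 of 9742 (11.3%) held such an exon. These counts are descriptions, and the candidates per gene differed between lists. Chromatin and transcription genes stood highest, with 54 of 215 genes (25.1%) and 86 of 1944 candidate exons (4.42%), against 2.16% of candidates over all genes. Protein kinases and growth signalling followed with 40 of 206 genes (19.4%), cell cycle and mitosis with 28 of 173 (16.2%), DNA replication and repair with 26 of 164 (15.9%), and splicing factors with 26 of 181 (14.4%). Apoptosis had 8 of 74 (10.8%) and ubiquitin and proteasome 27 of 261 (10.3%). Membrane trafficking (14 of 273, 5.13%), translation and ribosome (8 of 230, 3.48%) and mitochondria (5 of 190, 2.63%) stood lowest. By candidate exons the share was 2.81% for kinases and growth signalling, 2.5% for cell cycle and 2.39% for apoptosis. It was 2.36% for DNA replication and repair, 2.27% for splicing factors and 1.36% for ubiquitin. Membrane trafficking (0.759%), translation (0.649%) and mitochondria (0.46%) were lowest again. Candidates per gene ran from 5.66 in apoptosis to 9.55 in DNA replication and repair, and apoptosis ranked higher by candidates than by genes. Median WT changes within the lists ran from 13.6 to 20.8 points, and the median was 16.0 points over all.

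From each list the genes described next are those with the largest WT changes among annotated exons with separate WT groups and an SD of at most 10 points in each group, and exons outside these conditions had larger changes in some lists. Among splicing factors, SF1 binds the branch point before SF3b does. Skipping of its exon 3 of 13 (chr11:64540902-64540977) was 0.322% to 1.64% (median 1.10%) in WT DMSO, 39.0% to 45.6% (median 43.7%) in WT E7107, 1.07% to 2.89% (median 1.52%) in Y36C DMSO and 3.51% to 5.62% (median 4.49%) in Y36C E7107. The WT E7107 samples stood apart, and the Y36C E7107 samples, though low, also lay above all DMSO samples. Exon 11 of SRRM1, a splicing coactivator, had WT means of 0.221% ± 0.242 with DMSO and 34.9% ± 4.0 with E7107, and a Y36C E7107 mean of 1.32% ± 0.74. CLK3, a kinase of SR proteins, RBM33 and PTBP2 had WT changes of 31.9, 23.8 and 23.0 points and Y36C changes of 1.13, 0.61 and 2.44 points.

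In the cell cycle list CCNA2, which encodes the S and G2 phase cyclin A2, had the largest WT change after CDC25A among the exons that met these conditions. Skipping of its exon 3 of 8 (chr4:122742134-122742246) was 0% to 0.667% (median 0.353%) in WT DMSO, 20% to 37.3% (median 30.8%) in WT E7107, 0.306% to 0.340% (median 0.319%) in Y36C DMSO and 0% to 1.65% (median 0.315%) in Y36C E7107. The Y36C E7107 samples overlapped both DMSO groups. CKAP2, a spindle protein, TFDP2, a partner of E2F factors, and KIF20A, a mitotic kinesin, had WT changes of 28.8, 22.3 and 21.3 points. Their Y36C changes were 2.47, 0.37 and 2.80 points.

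In DNA replication and repair the exon of TOP2A, a topoisomerase of dividing cells, had the largest WT change among the exons that met these conditions. Skipping of exon 6 of 35 (chr17:38569447-38569544) was 0% in all WT DMSO samples, 16.5% to 24.3% (median 19.2%) in WT E7107, 0% to 1.11% (median 0.262%) in Y36C DMSO and 0% to 3.33% (median 1.06%) in Y36C E7107. The WT E7107 samples were separate from all others. MCM10, a replication initiation factor, and UIMC1 and RNF8, which act at DNA breaks, had WT changes of 14.8, 13.6 and 13.5 points, and ORC6, a subunit of the origin recognition complex, 12.2 points. In UIMC1 the junction was at 0% in all 18 samples outside WT E7107.

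In the apoptosis list RIPK2, a kinase downstream of NOD receptors, had a WT change of 24.2 points, DAPK3 of 18.6 points and TNFRSF10D, a decoy receptor for TRAIL, of 18.0 points, next to 32.2 points for MCL1. Their Y36C changes were 0.818, 1.94 and 2.87 points. Of the 10 exons in this list, 6 met the conditions for naming.

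In the chromatin list KMT2E, a reader of histone H3 methylation, came after ARID4B among the exons that met these conditions. Skipping of its exon of 39 bases (chr7:104716490-104716528, exon 9 of 27) was 0% in all 18 samples outside WT E7107 and 36.8% to 47.1% (median 41.4%) in WT E7107. Unlike MCL1, the KMT2E site held few unspliced reads in WT E7107, with 7.76% boundary and 50.2% inclusion. TAF1A, a factor of RNA polymerase I, SETD1B, a histone methyltransferase, and MED13, a subunit of the Mediator kinase module, had WT changes of 29.4, 27.9 and 27.6 points and Y36C changes of 0, 1.10 and 0.39 points. At the TAF1A site boundary reads already made up 56.7% in WT DMSO, and at the PTBP2 site 35.2%.

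In growth signalling AXIN2, a negative regulator of Wnt signalling, showed skipping of exon 9 of 11 at 0% to 3.33% in WT DMSO and 26.9% to 47.1% (median 43.9%) in WT E7107. In Y36C cells it was 0% to 8.82% with DMSO and 0% to 10% with E7107. MARK2, ABL2, SAV1, a scaffold of the Hippo pathway, and HIPK1 had WT changes of 22.3, 21.1, 19.4 and 18.6 points and Y36C changes between -0.41 and 0.51 points. In the ubiquitin list TRIM33 and USP47, a ubiquitin ligase and a deubiquitinase, had WT changes of 32.9 and 32.2 points, and UBE2Q1, COPS2 and RNF44 of 21.4, 20.3 and 19.8 points. The Y36C changes of these 5 ran from 0.273 to 2.17 points.

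The translation list held few exons, but some were sharply separated. EIF5 encodes an initiation factor that acts on the start codon complex, and skipping of its exon 4 of 12 (chr14:103802373-103802454) was 0% to 0.191% in both DMSO groups, 27.5% to 36.5% (median 32.2%) in WT E7107 and 1.29% to 3.46% (median 2.79%) in Y36C E7107. The WT and the Y36C E7107 samples each lay above all DMSO samples. EIF4A2, an RNA helicase of initiation, had the narrowest spread of these, with 22.5% ± 1.0 in WT E7107 against 0.0239% ± 0.0585 in WT DMSO and 1.15% ± 0.28 in Y36C E7107 (SD, n = 6). RPS12, ETF1, the release factor, and MRPS30 had WT changes of 21.0, 19.9 and 14.9 points. Reads of RPS12 can also match processed copies of the gene, so its value is uncertain.

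The mitochondrial list gave NDUFAF5 (16.6 points), COX20 (16.4 points) and POLG (10.6 points), which serve complex I assembly, complex IV assembly and mitochondrial DNA replication. COX20 differed from the others by its high skipping in untreated cells, 28.0% to 38.1% (median 32.9%) in WT DMSO and 46.2% to 53.5% (median 48.5%) in WT E7107. In Y36C cells it was 29.9% to 41.7% with DMSO and 35.6% to 41.0% with E7107, which overlapped. In membrane trafficking CHMP7, VPS13B, ARFGAP1 and VPS11 had WT changes of 20.5, 19.3, 18.3 and 15.5 points and Y36C changes of 0.816, 2.22, 2.79 and 0.667 points.

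Several genes held more than 1 such exon, counted by skipping junctions, so that different junctions over the same stretch count separately. Among 1100 genes 214 held at least 2 and 14 held at least 4. PHIP, which encodes a WD repeat and bromodomain protein, held 6 among 25 candidates, with WT changes from 14.1 to 44.2 points and Y36C changes from -0.02 to 2.76, and 5 of the 6 had separate WT groups. THBS1 held 5 among 11 candidates, all with separate WT groups, and its Y36C changes ran from -0.83 to 0 points. MED13 also held 5, and KDM5B, a histone demethylase, held 4 among only 8 candidates. BRD8, CDC25A, KIF5B and KPNA4 held 4 each with separate WT groups, whereas the 4 in JMJD1C and the 4 in NFXL1 all had overlapping WT groups. Exons of 1 gene share its transcripts and are not independent. Stretches of more than 1 exon were among them, with 3 in BRD8, 3 in KIF5B, 2 in CDC25A and 2 in PHIP. Both stretches in CDC25A were 896 bases long.

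The skipped exons were compared with all candidates and with 2625 exons that met the mirrored rule, skipped in Y36C but not WT. The median exon length was 124 bases, close to 126 over all candidates, and was 98 bases for the mirrored set. The introns on either side were poorer in G and C. The median GC content was 41.1% in the intron before and 40.1% in the intron after, against 44.3% and 43.6% over all candidates and 44.2% and 43.0% in the mirrored set. In the exon itself it was 45.4%, against 48.9% and 49.4%. Exons skipped in both genotypes, 589 in number, had intron values of 41.3% and 40.5%, near those of the exons skipped in WT alone, and a median length of 99 bases. The quartiles of all sets overlapped widely, and no test was applied to these comparisons.

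**Figure D5:**
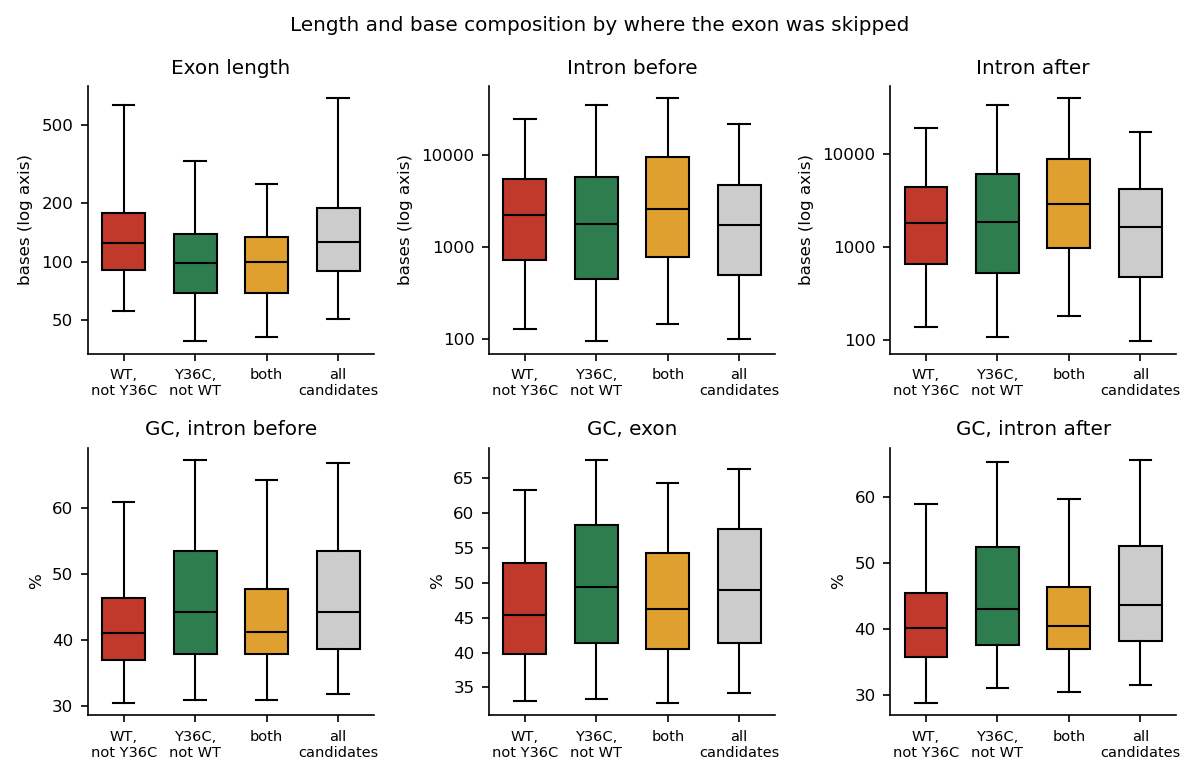
Length in bases (log axes) and GC content in percent of the exon and its introns, for exons skipped in WT but not Y36C, in Y36C but not WT, in both, and for all candidates. Boxes give the quartiles with the median as a line and whiskers run from the 5th to the 95th percentile. Introns of the first set have a median GC content of 41.1% before and 40.1% after the exon.

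The lower GC content was also found in the 595 exons with separate WT groups, at 40.9% before and 39.9% after the exon. Intron length was not as stable, since the median intron before the exon was 2258 bases for the 1386 exons and 1719 for all candidates, but 1707 for the 595. The 3′ splice sites did not set the exons apart by the measures taken. The median share of pyrimidines in the last 20 bases of the intron was 70% in each set, and every intron before ended in AG. CTNA occurred in the last 50 bases in 65.8% of exons and 65.3% of all candidates, matches that run into the final AG included. The 5′ splice site after the exon was GT in 1375 and GC in 11.

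Of 1089 skipped stretches that were exact coding exons, 394 (36.2%) had a length that was a multiple of 3, against 41.3% of all candidates, 48.5% of the mirrored set and 53.3% of the exons skipped in both. The skipping junction was in the annotation for 344 of 1386 (24.8%), against 57.2% of the mirrored set, 65.7% of the exons skipped in both genotypes and 18.6% of all candidates. Where it was annotated the median PSI was 4.19% in WT DMSO and 25% in WT E7107, and where it was not, 0% and 16.7%. Next-to-last exons of the canonical transcript made up 217 of 1188 exons with a rank (18.3%) and 21.7% of those with separate WT groups, against 11.1% of all candidates and 10.2% of the mirrored set. Among exons skipped in both genotypes the share was 16.7% (85 of 509), close to that of the exons skipped in WT alone. Within the 1386 the next-to-last exons had a median WT change of 17.4 points, next to 15.7 points for the other ranked exons.

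Y36C DMSO and WT DMSO were also compared by limma, as a description, because the rule had used both DMSO means. It favours a low PSI in WT DMSO and a high PSI in Y36C DMSO, and so a positive difference between Y36C and WT. Only 248 of the 1386 skipping junctions had a PSI above 0 in all 6 samples of either group and entered the fit. At an adjusted p of 0.05 or less over 361441 rows, 1 of the 248 differed, against 0.112% of all rows and 0.219% of the candidate skipping junctions. Unadjusted p under 0.05 was found for 31 (12.5%), against 9.31% of all rows and 14.2% of candidate skipping junctions. The median difference in log odds (natural logarithm, Y36C minus WT) was 0.09 over the 248 and -0.01 over the candidates.

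The junction called skips an exon of NAPB, a SNAP protein of vesicle fusion (chr20:23377709-23377825), named after its values were seen. Its PSI was 0% in all WT DMSO samples and 7.14% to 25% (median 16.0%) in Y36C DMSO, without overlap. It entered the fit only through Y36C DMSO, and that high value gave the Y36C change of -13.52 points by which it met the rule, so its difference carries no test here. Under E7107 it was 0% to 75% (median 12.5%) in WT cells and 0% to 11.1% (median 0%) in Y36C cells. Of the inclusion junctions of the skipped exons 1307 entered the fit on each side and 3 were called, a share near the 0.112% of all rows. Of the boundary rows between 311 and 372 entered at each of the 4 splice sites around the exon, and 2 were called in all.

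Over the whole series, the number of splice sites with reads had a median of 337968.5 with DMSO and 282785.5 with E7107 in WT cells, and of 336782 and 330507 in Y36C cells, so WT E7107, in which the skipping is seen, had the fewest. The part of this in the skipping values was not tested. Of 10 epithelial marker genes 8 had spliced reads in all 24 samples, and of 10 marker genes of blood, fibroblasts and endothelium 1 did, COL1A1. The files give percentages without read numbers, so no counting error can be given for a single PSI. The labels do not say whether the 6 samples of a group were separate cultures, and p-values measure only the spread between these samples.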

How the data were processed

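Polyadenylated RNA of 24 samples was sequenced. Per the labels and methods, the authors aligned reads to hg19 with STAR, counted junction and exon-intron boundary reads, and deposited for each sample the percent of reads at a splice site (PSI) that use each junction. Counts were not used here. Of 1830076 rows per file, 6433 on the mitochondrial chromosome or without strand were left out. Rows of a site sum to 100 or 0 percent (within 0.1), and sites with a sum of 0 were taken to have no reads. The depth behind a PSI is unknown. No pair of samples was identical.

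Introns run from the base after the listed start to the listed end. Genes and exons came from GENCODE 44 lifted to GRCh37, and sequence from GRCh37. A junction listed at both ends was described at the end with the larger WT change that met the rule, and PSI of inclusion was read at the end shared with the skipping junction. The members and the gene lists were chosen with earlier results of these data known. Named genes were the 15 largest WT changes, 1 per gene, among annotated exons with separate WT groups and an SD of 10 points or less in every group, up to 5 per gene list by the same conditions, and a few genes looked up for their place in the study, not all of which are reported here.

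The 12 DMSO samples were compared with limma 3.58.1 (R 4.3.3) on the natural logarithm of the odds of PSI, after 1 percentage point was added to both sides of the odds. Rows entered when every sample had reads at the site and 1 group or both had no sample at 0. p-values were adjusted by Benjamini-Hochberg over all rows, with 0.05 as the threshold. The fit was tested on simulated data. Python 3.11.15, numpy 2.4.6, pandas 2.3.3 and matplotlib 3.10.9 were used. Alternatives changed the reading of the rule, the offset, the filter, the scale and the samples.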

Additional observations from a re-analysis of the deposited data

Results flagged for a closer look

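For the 59 named exons, the 6 samples of each group were searched for a highest or lowest skipping PSI set far from the rest, its gap to the nearest sample over the whole range being above 0.625. Chance marks about 1 in 20 groups, and 44 of 236 groups were marked, most of them groups in which 5 samples were at 0. In WT DMSO 1 sample was above 0 and the other 5 were at 0 for GJC1 (2.08%), CDC25A (2.56%), DNTTIP2 (1.05%), ZNF639 (2.33%), PANK4 (1.47%), CKAP2 (1.45%), KIF20A (0.54%), AXIN2 (3.33%), MARK2 (1.3%), COPS2 (0.346%), RNF44 (2.94%), NDUFAF5 (5.56%), EIF5 (0.191%), EIF4A2 (0.143%), RPS12 (0.568%) and VPS11 (3.33%). In Y36C DMSO 1 sample was above 0 and the other 5 were at 0 for GJC1 (1.67%), PANK4 (1.39%), SRRM1 (0.317%), CKAP2 (0.685%), RNF8 (2.17%), RIPK2 (1.37%), MED13 (0.685%), ABL2 (2.44%), UBE2Q1 (0.585%), COPS2 (0.346%), EIF5 (0.191%), RPS12 (0.556%), ETF1 (0.254%) and CHMP7 (0.813%). In Y36C E7107 1 sample was above 0 and the other 5 were at 0 for MFHAS1 (3.66%), DNMBP (0.645%), RBM33 (3.66%), HIPK1 (1.96%), VPS13B (13.3%) and VPS11 (4.00%).

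SF1 was at 2.89% in Y36C DMSO replicate 4, and the other 5 samples ran from 1.07% to 1.64%. CCNA2 was at 1.65% in Y36C E7107 replicate 3, and the other 5 samples ran from 0% to 0.612%. KIF20A was at 25.9% in WT E7107 replicate 6, and the other 5 samples ran from 19.7% to 21.5%. MED13 was at 1.89% in Y36C E7107 replicate 1, and the other 5 samples ran from 0% to 0.599%. AXIN2 was at 26.9% in WT E7107 replicate 1, and the other 5 samples ran from 42.9% to 47.1%. COX20 was at 29.9% in Y36C DMSO replicate 6, and the other 5 samples ran from 38.0% to 41.7%. RPS12 was at 1.58% in Y36C E7107 replicate 1, and the other 5 samples ran from 0% to 0.546%. CHMP7 was at 4.81% in Y36C E7107 replicate 2, and the other 5 samples ran from 0% to 0.901%.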

How the results depend on the processing

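The number of exons depended on how the rule was read. Counting spliced reads only, without boundary reads, gave 2590 exons with a median WT change of 17.6 points, of which 1324 were among the 1386. Requiring the rule at both sites gave 646 (19.3 points), and requiring WT groups that do not overlap gave 595 (18.6 points). Of alternatives added after seeing the data, boundary rows taken as inclusion junctions gave 2213 (16.7 points), and a PSI above 0 in all 6 WT E7107 samples gave 704 (17.9 points). Inclusion read at either site gave 1820, group medians 1102 and annotated exons only 1236. A Y36C change between -3 and 3 points gave 1288, where 1 site of the junction was enough. Each count was within 1.5 times of the count of 1386. Median changes (group medians not computed) moved by less than the spread of 0.589 points between samples. At the described site alone, 1284 of the 1386 had a Y36C change between -3 and 3 points. Without 1 replicate number in each group the count was between 1557 and 1606 and the median change between 15.1 and 15.6 points, and between 1185 and 1225 exons were shared with the 1386.

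In the DMSO comparison 1 skipping junction differed under every offset, scale and filter tried and without each replicate. With spliced reads only 2 of 248 differed, next to 72 of 8666 candidate skipping junctions and 534 of 251346 rows, a similar share of the candidates. The rule had used both DMSO means, so these counts are descriptions. Deviations of samples with the same replicate number had correlations between -0.00548 and 0.00586 over all rows. Between WT E7107 and Y36C DMSO the own number matched best for 4 of 6 samples, and for 2 or fewer between other groups. The depth behind a PSI is unknown, so these correlations cannot exclude a pairing, and the main fit used none. With the replicate block 1 skipping junction differed, and 25 of all rows instead of 406. Over all rows 237 were called with an offset of 0.1 points, 799 with 5 points and 947 on untransformed percentages. Most skipping junctions could not be tested without treatment because they were rarely seen, and depth, known only as the number of sites with reads, was lowest in WT E7107.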

Other observations

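A smaller set of 102 of the 1386 exons had less skipping in Y36C E7107 than in Y36C DMSO by more than 3 points, which the rule allowed. Such a fall is possible only where skipping in Y36C DMSO was above 3%, so use of these junctions in untreated Y36C cells follows from the choice. In WT DMSO the mean PSI was 0 for 8 of the 102. The median PSI went from 18.2% with DMSO to 36.3% with E7107 in WT cells and from 22.0% to 13.8% in Y36C cells. In 7 of the 102 (6.86%) all WT E7107 samples lay above all WT DMSO samples, against 42.9% of the 1386 and 3.89% of all candidates. In most of the 102 the WT groups thus overlapped.

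Of the 1100 genes with an exon skipped in WT but not Y36C, 217 (19.7%) also held an exon skipped in Y36C but not WT. These 217 were 10.6% of the 2050 genes with such an exon, and 2050 of 9742 genes with a candidate (21.0%) held one.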
